A study of Mus musculus with 40 samples.

Results

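The genes of oxidative phosphorylation were followed through rib regeneration in bulk RNAseq of mice. Members were chosen by symbol from the deposited table of normalized values: names beginning with Nduf followed by a, b, c, s or v (mostly complex I subunits and assembly factors), Sdha to Sdhd (complex II), Uqcr (complex III), Cox4 to Cox8 (complex IV), Atp5 (ATP synthase, complex V) and the protein genes of the mitochondrial genome, leaving out the 8 symbols that carry -ps. The rule found 107 of the 21204 genes tested, of which 94 lie in the nuclear genome and 13 in the mitochondrial genome. The nuclear members comprised 7 core subunits, 31 accessory subunits and 8 assembly factors of complex I, 4 subunits of complex II, 8 of complex III, 19 of complex IV and 17 of complex V. Ndufa4 and Ndufa4l2 were counted with complex IV, where the NDUFA4 protein is now placed, despite their names. All 107 passed the authors' filter, 97 had a mean over the 39 libraries of at least 10 CPM (read counts scaled to a common library size with TMM factors), and 1 was under 1 CPM.

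The mice were wild type and, by the study's methods, female. Immature mice were 7 weeks old and mature mice were older than 10 months. Each age was sampled at baseline, where the labels describe a mixture of rib bone, its marrow and the muscle between the ribs, and at 0, 2, 5 and 14dpr (days after resection of a rib segment), where the labels describe callus. Every group had 4 libraries except mature 5dpr, which had 3 because the deposited values hold none for replicate 2. The labels do not say that replicates were separate animals, so p-values measure only the spread between these samples. The labels place baseline collection after the operation and the study's methods before it, a difference that could not be settled here. Baseline is labelled as another tissue than 0dpr, and the tissue and the resection cannot be told apart in that comparison.

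Oxidative phosphorylation moves electrons from NADH and succinate through complexes I to IV to oxygen, and complex V uses the resulting proton gradient to make ATP. Complexes I, III, IV and V are built from proteins of both genomes. The nuclear genes are transcribed singly, whereas the mitochondrial genes come from long precursor RNAs that are cut into single messages. Striated muscle is rich in mitochondria and carries its own isoforms of several complex IV subunits. In bulk tissue, fewer cells of a type and less RNA per cell cannot be told apart.

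Parts of the mitochondrial genome have copies in the nuclear chromosomes, and this decides which of the 13 genes can be read as mitochondrial. Of all windows of 100 bases in mt-Co2 (chrM:7013-7696, plus strand, GRCm38), 99.5% also occur in the chromosome 1 pseudogene Gm28661. The first 60 bases of both genes are printed to show that a read from here has no unique origin.

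mt-Co2: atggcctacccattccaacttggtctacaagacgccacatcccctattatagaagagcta
Gm28661: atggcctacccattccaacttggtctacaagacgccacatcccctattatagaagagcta

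Over 681 aligned bases these genes differ at 0 positions. The same held for mt-Co3 and Gm28437 over 783 bases, and for mt-Atp6 and Gm10925 over 678 bases. In 6 mitochondrial genes (mt-Co2, mt-Co3, mt-Atp6, mt-Nd3, mt-Nd4l and mt-Nd4) between 60.8% and 99.9% of windows were shared, against 30.8% in mt-Co1, 3.19% in mt-Nd2 and none in the other 5. Reads of the shared windows could be split or dropped in counting, and the levels of the 6 genes are uncertain. The copies had counts of their own. Gm28661 had a median of 220 CPM, against a mean of 83.9 CPM for mt-Co2. Gm28437 had 398 CPM against 175 CPM for mt-Co3, and Gm28439 had 23.1 CPM against 544 CPM for mt-Nd4. The copies are not members and lie outside the mitochondrial sum. From which genome their reads came was not tested. Per kilobase of exon, their median level was 92.3 CPM, against 459 CPM for the other 7 mitochondrial genes and 74.8 CPM for the nuclear members. mt-Co1 alone held 68.1% of the summed mitochondrial CPM, mt-Cytb 10.8% and mt-Nd1 10.5%. mt-Nd5 and mt-Nd6 overlap on opposite strands, and the strand setting of the counting is not given in the sources used here. Among nuclear members, Ndufb4c shared 100% of its windows with Ndufb4, and Ndufaf2 shared 62.4% with a noncoding gene.

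Promoters are shown for 2 members expressed in most cells, Cox6a1 and Sdhb, and for 2 isoforms of striated muscle, Cox7a1 and Cox8b, whose values are described below. They are examples only, and whether promoters of the 2 kinds differ was not tested. Each run holds the 250 bases before the RefSeq start on GRCm38.p6, and capitals mark the motifs GCATGCGC (the core of the NRF1 site) and CCGGAAG (an ETS site) on either strand. Cox6a1 lies at chr5:115348959-115349208 on the minus strand and Sdhb at chr4:140961021-140961270 on the plus strand. Cox7a1 lies at chr7:30183921-30184170 on the plus strand and Cox8b at chr7:140900447-140900696 on the minus strand. The GENCODE genes of Cox6a1, Sdhb and Cox7a1 start inside the printed runs, whose last bases are then transcribed.

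Cox6a1: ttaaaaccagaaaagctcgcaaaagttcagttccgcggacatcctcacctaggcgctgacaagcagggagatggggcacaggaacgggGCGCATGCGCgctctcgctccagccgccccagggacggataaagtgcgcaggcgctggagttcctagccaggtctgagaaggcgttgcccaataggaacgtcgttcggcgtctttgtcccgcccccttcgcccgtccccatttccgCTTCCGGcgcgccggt
Sdhb: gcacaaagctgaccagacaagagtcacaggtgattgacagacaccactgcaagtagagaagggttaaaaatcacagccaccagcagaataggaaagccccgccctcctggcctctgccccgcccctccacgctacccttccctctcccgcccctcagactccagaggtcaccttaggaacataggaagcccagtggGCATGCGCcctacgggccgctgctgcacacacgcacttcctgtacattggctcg
Cox7a1: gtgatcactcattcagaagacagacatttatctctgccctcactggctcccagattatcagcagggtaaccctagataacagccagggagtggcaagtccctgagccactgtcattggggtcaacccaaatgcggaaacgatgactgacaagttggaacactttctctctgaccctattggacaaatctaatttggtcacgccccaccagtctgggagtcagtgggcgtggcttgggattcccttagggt
Cox8b: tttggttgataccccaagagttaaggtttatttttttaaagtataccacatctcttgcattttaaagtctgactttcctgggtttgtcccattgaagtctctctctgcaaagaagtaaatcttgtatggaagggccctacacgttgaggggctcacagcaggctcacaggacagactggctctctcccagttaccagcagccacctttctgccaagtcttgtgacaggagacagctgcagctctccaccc

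In Cox6a1 overlapping matches on both strands join into 1 stretch of capitals. The ETS match of Sdhb lies in the 50 bases after the start, which were searched but are not printed. Neither NRF1 nor ETS letters were found in the windows of Cox7a1 and Cox8b. Of the 94 nuclear members, 75 had a promoter in the table, and over the full 300 bases GCATGCGC occurred in 12 of them (16%), against 2.8% of all 27025 promoters. CCGGAAG occurred in 24% of members and 9.12% of all, AAGATGGCG (YY1) in 9.33% and 1.49%, and TCAAGGTCA (an estrogen-related receptor site) in 2.67% and 0.407%. These shares describe letters and not bound sites.

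The depth of the libraries lay between 6057756 and 21537070 counts (median 9087417). The labels give separate sequencing runs but not which library was in which. In 2 libraries the short nuclear members were low against the long ones. The mean log2 CPM of the 31 shortest members (231 to 1108 exon bases) minus that of the 31 longest (2147 to 8086) was -2.20 in mature 2dpr replicate 3 and -1.94 in immature 0dpr replicate 3, and between -1.54 and -1.17 in the other 37. These 2 libraries also had the highest ratios of mitochondrial to nuclear CPM. Where leaving out either library ended a call printed here or moved a printed fold change or median over 1.5-fold, the value without it is given. The part of the length difference in the results was not tested.

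Both genomes' messages were high at 0dpr and lower from 2dpr on, and the nuclear ones were also high at baseline. In mature mice the main mitochondrial messages at 2dpr were near their baseline level. There the means at baseline and 2dpr were 10898 and 10600 CPM for mt-Co1, 1928 and 1918 CPM for mt-Cytb, and 1786 and 2011 CPM for mt-Nd1. The nuclear members summed to between 12187 and 30689 CPM in the 16 libraries of baseline and 0dpr and to between 7183 and 14031 CPM in the 23 later ones. The mitochondrial sum ran from 12088 to 57775 CPM early and from 7203 to 19260 CPM late. Both measures overlapped between early and late libraries, the nuclear one through mature baseline.

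**Figure D1:**
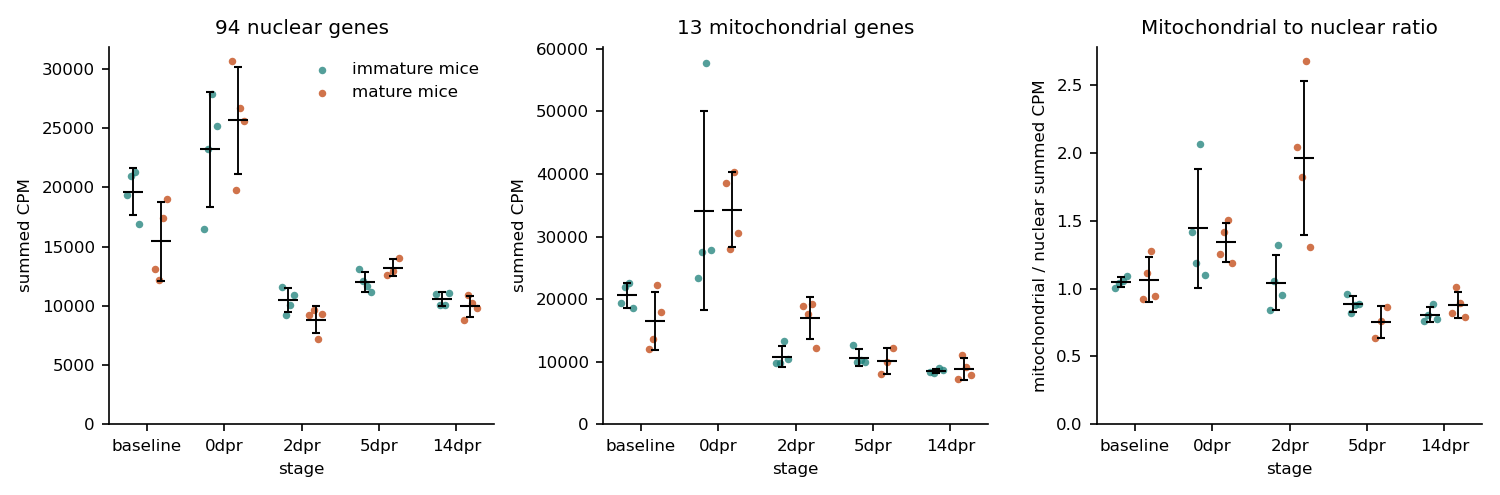
Summed CPM of the 94 nuclear and of the 13 mitochondrial members and the ratio of the sums, 1 point per library, by stage and age, with bars for the mean and SD. The ratio was highest in mature 2dpr, where all 4 libraries lay between 1.31 and 2.68, and lowest at 5 and 14dpr.

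The ratio of the mitochondrial to the nuclear sum did not stay constant. At baseline it was 1.00, 1.04, 1.06 and 1.09 in immature libraries and 0.924, 1.12, 1.28 and 0.946 in mature mice. At 2dpr it was 0.841, 1.06, 1.32 and 0.954 in immature libraries and 2.05, 1.82, 2.68 and 1.31 in mature libraries. Thus mature 2dpr was high in 3 libraries, while its remaining library, at 1.31, lay just under the highest immature library. Leaving mt-Co1 out of the sum, the ratio ran from 0.269 to 0.436 in immature and from 0.509 to 0.872 in mature mice at 2dpr, and the ages did not overlap. At 5dpr the ratio was 0.964, 0.821, 0.875 and 0.885 in immature and 0.633, 0.764 and 0.867 in mature mice, and the ages overlapped.

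From 0 to 2dpr, nearly the whole nuclear set fell at both ages. In immature mice 81 of 94 nuclear and 10 of 13 mitochondrial members fell and none rose, where 22.2% of all genes tested fell. In mature mice 84 nuclear and 8 mitochondrial members fell and none rose, where 24.9% of all genes fell. The median log2 fold change of the nuclear members was -1.08 in immature and -1.47 in mature mice, that of the mitochondrial members -1.36 and -0.79, and that of all genes -0.04 and -0.05. These and all following calls are from edgeR's quasi-likelihood test with Benjamini-Hochberg adjustment over all genes at 0.05.

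The fall ran through each complex. In immature mice 7 of 7 core and 29 of 31 accessory subunits of complex I fell, 4 of 4 subunits of complex II, 8 of 8 of complex III, 13 of 19 of complex IV and 16 of 17 of complex V, but 4 of 8 assembly factors of complex I. In mature mice the counts were 7, 30, 4, 8, 14 and 17 in the same order, and again 4 assembly factors. Ndufv1, which holds the NADH binding site of complex I, was at 216, 303, 357 and 328 CPM in immature mice at 0dpr and at 122, 86.2, 109 and 114 CPM at 2dpr. All 0dpr libraries lay above all 2dpr libraries, and the log2 fold change was -1.48 ± 0.16 (SE, n = 4 per group, edgeR adjusted p = 2.7e-09). In mature mice Ndufv1 went from 462, 255, 396 and 367 CPM to 84.2, 89.7, 106 and 92.5 CPM, again without overlap (-1.99 ± 0.16, edgeR adjusted p = 3.33e-12).

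Central subunits of the other complexes fell too. Sdhb, the iron-sulfur subunit of complex II whose promoter is printed above, was at 245, 393, 532 and 460 CPM at 0dpr and 183, 134, 157 and 163 CPM at 2dpr in immature mice. The 2dpr libraries were all lower (-1.36 ± 0.18, edgeR adjusted p = 9.68e-08), as they were in mature mice (-1.96 ± 0.18, edgeR adjusted p = 3.85e-11). Atp5b, the catalytic beta subunit of ATP synthase, was at 1510, 2001, 2606 and 2197 CPM at 0dpr and 1062, 866, 894 and 1022 CPM at 2dpr in immature mice. The groups did not overlap, with a log2 fold change of -1.11 ± 0.15 (edgeR adjusted p = 2e-07). In mature mice Atp5b fell from 2365 ± 473 to 836 ± 60.8 CPM (SD, n = 4 per group, edgeR adjusted p = 3.65e-10). Sdha, Uqcrc1, Uqcrfs1, Cox5a, Atp5a1 and Ndufs1 fell at both ages, by between 1.14 and 1.82 on the log2 scale, with no overlap between groups. The calls of the genes named here were kept without immature 0dpr replicate 3 and without mature 2dpr replicate 3.

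The median fall of the mitochondrial genes was smaller in mature mice, though a test of the difference between the ages, given further on, passed for no member. mt-Co1, the catalytic subunit of complex IV (chrM:5328-6872), was at 15426, 19050, 42769 and 19114 CPM at 0dpr and at 6617, 6580, 8889 and 7122 CPM at 2dpr in immature mice. The third 0dpr library stood far above the rest, and the log2 fold change of -1.72 ± 0.25 (edgeR adjusted p = 5.3e-07) was -1.32 without it, with the call kept. In mature mice mt-Co1 went from 25264, 19381, 27318 and 21944 CPM to 10831, 10324, 13828 and 7416 CPM, without overlap (-1.15 ± 0.24, edgeR adjusted p = 0.000178). mt-Nd2, a core subunit of complex I, fell in immature mice (-1.58 ± 0.25, edgeR adjusted p = 3.64e-06), while in mature mice its log2 fold change was -0.43 ± 0.25 (edgeR adjusted p = 0.156). mt-Nd5 likewise fell in immature mice (-1.19 ± 0.27, edgeR adjusted p = 0.000479) and had a log2 fold change of -0.35 ± 0.27 in mature mice (edgeR adjusted p = 0.3), or -0.22 without 2dpr replicate 3.

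**Figure D2:**
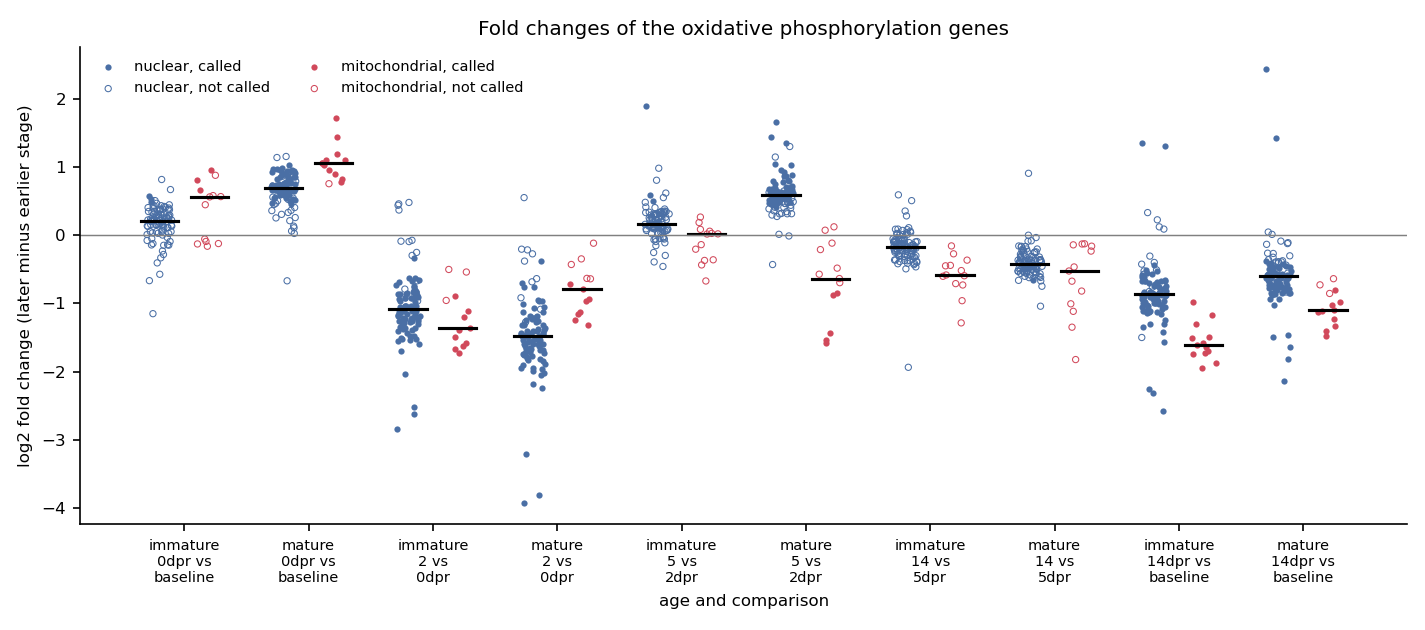
Log2 fold change of each member in the stage comparisons of both ages, with nuclear and mitochondrial members apart, filled points for called genes and a line at each median. Both medians lie below 0 from 0 to 2dpr at both ages, and in mature mice from 2 to 5dpr the nuclear median of 0.59 and the mitochondrial median of -0.63 lie on opposite sides of 0.

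The nuclear members that passed at neither age, listed after their values were seen, were Cox4i2, Cox6a1, Cox6c2, Cox8a, Ndufa4l2, Ndufs6b, Ndufaf2, Ndufaf7 and Ndufaf8. Several belong to isoform pairs. Complex IV carries pairs of isoforms in which Cox6a2, Cox7a1 and Cox8b are those of striated muscle, while Cox6a1, Cox7a2 and Cox8a are found in most cells. Cox7a1 (chr7:30184144-30186078) was at 187, 288, 254 and 267 CPM at 0dpr and at 34.8, 23.3, 34.8 and 45.8 CPM at 2dpr in immature mice. No library of 2dpr came near those of 0dpr, and the log2 fold change was -2.85 ± 0.26 (edgeR adjusted p = 4.19e-11). In mature mice Cox7a1 went from 319, 184, 265 and 319 CPM to 21.2, 16.5, 11.4 and 27.3 CPM, also without overlap (-3.81 ± 0.27, edgeR adjusted p = 7.81e-14).

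Cox8b (chr7:140898945-140900446) fell from 284, 479, 389 and 492 CPM to 68.6, 40.0, 84.0 and 94.4 CPM in immature mice (-2.52 ± 0.34, edgeR adjusted p = 1.43e-07) with separate groups. Its log2 fold change in mature mice was -3.92 ± 0.36 (edgeR adjusted p = 3.24e-11), and -3.62 without mature 2dpr replicate 3, which held the lowest value, 8.99 CPM. Cox6a2 (chr7:128205435-128206387) fell by 2.62 ± 0.37 on the log2 scale in immature mice (edgeR adjusted p = 3.81e-07) and by 3.21 ± 0.38 in mature mice (edgeR adjusted p = 7.97e-09). These were the 3 members with the largest falls at either age.

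The partner isoforms took another course. Cox6a1 was at 72.8, 69.4, 62.7 and 85.4 CPM at 0dpr and at 115, 86.7, 86.0 and 106 CPM at 2dpr in immature mice. Every 2dpr library was higher, yet the log2 fold change of 0.44 ± 0.23 did not pass the test (edgeR adjusted p = 0.115), nor did that of -0.20 ± 0.23 in mature mice (edgeR adjusted p = 0.484). Cox8a had log2 fold changes of 0.48 ± 0.23 and -0.21 ± 0.23 (edgeR adjusted p = 0.0942 and 0.474). In mature mice without 2dpr replicate 3 the values of Cox6a1 and Cox8a were 0.06 and 0.06, and in immature mice without 0dpr replicate 3 that of Cox8a was 0.32. Without immature 0dpr replicate 4 Cox8a passed, at 0.64. Cox7a2 fell at both ages, by 0.63 ± 0.16 and by 0.94 ± 0.16 on the log2 scale (edgeR adjusted p = 0.00126 and 5.88e-06).

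The ratios within pairs separated the stages in each library. The log2 ratio of Cox6a2 to Cox6a1 CPM lay between 1.32 and 3.24 in the 16 libraries of baseline and 0dpr and between -1.41 and 0.45 in the 23 libraries of 2 to 14dpr. The ratio of Cox7a1 to Cox7a2 went from a range of -0.60 to 0.22 to a range of -3.35 to -1.14, and that of Cox8b to Cox8a from 1.53 to 3.17 to -1.77 to 0.72. None of these ranges overlapped. Ndufa4l2 moved the other way against Ndufa4, from -6.91 to -5.23 early to -4.65 to -2.23 late. Cox4i2 against Cox4i1 overlapped, with -9.17 to -7.17 early and -8.39 to -5.98 late. These ratios are not divided by transcript length and are compared between libraries only.

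**Figure D3:**
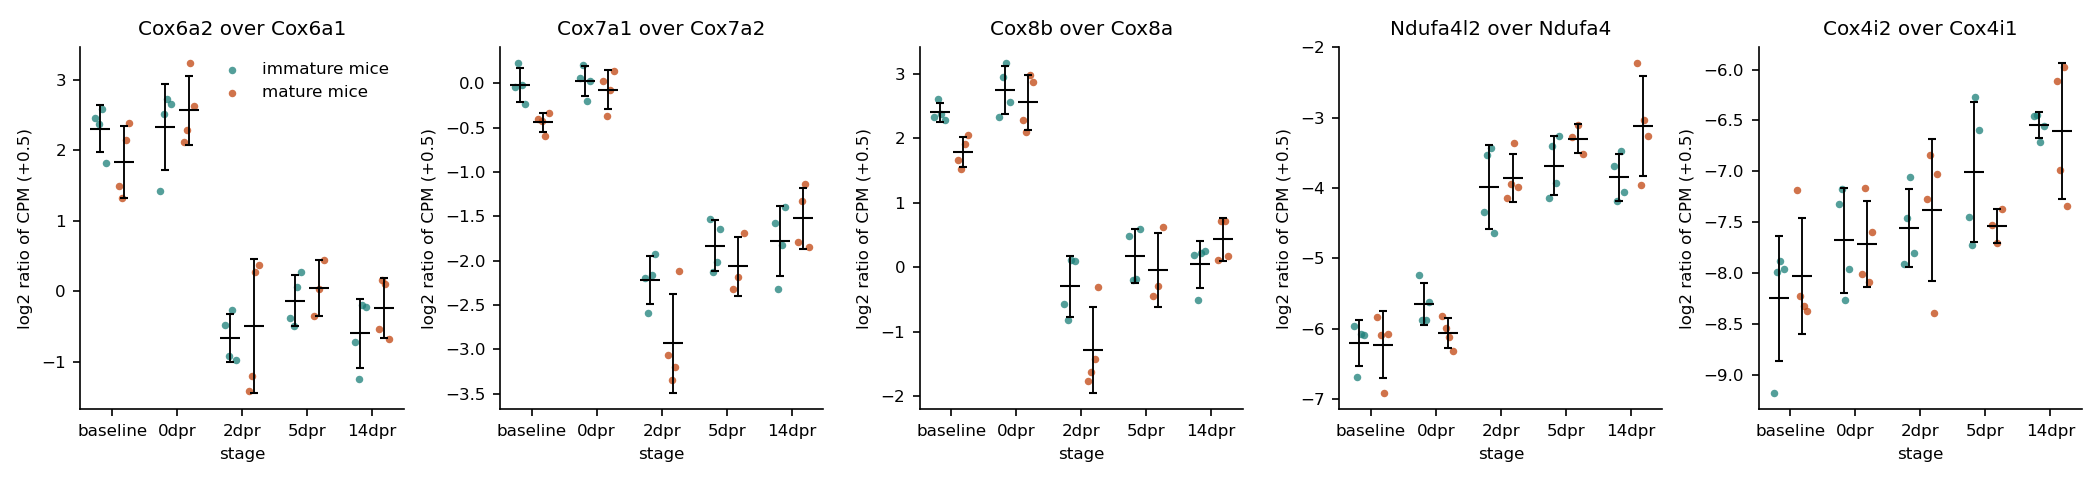
Log2 ratio of CPM within 5 isoform pairs, 1 point per library, by stage and age, with bars for the mean and SD. In the 3 muscle pairs and in Ndufa4l2 over Ndufa4 the libraries of baseline and 0dpr are separate from those of 2 to 14dpr, whereas Cox4i2 over Cox4i1 overlaps.

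From 2 to 5dpr in mature mice, the members that passed the test rose if nuclear and fell if mitochondrial. Of the nuclear members 58 rose and none fell, where 8.16% of all genes tested rose, and of the mitochondrial members 5 fell and none rose, where 6.38% of all genes fell. The median log2 fold change was 0.59 for the nuclear members, -0.63 for the mitochondrial members and 0.06 for all genes. Among the mitochondrial members it was -0.84 for the 7 with few or no shared windows and -0.39 for the 6 with mostly shared windows. By complex, 5 of 7 core and 19 of 31 accessory subunits of complex I rose, 3 of 4 of complex II, 6 of 8 of complex III, 10 of 19 of complex IV, 14 of 17 of complex V and 1 of 8 assembly factors. The 5 mitochondrial genes were mt-Nd1, mt-Nd2, mt-Nd4, mt-Nd5 and mt-Cytb.

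mt-Nd2 (chrM:3914-4951) was at 1015, 805, 484 and 482 CPM at 2dpr and at 207, 197 and 296 CPM at 5dpr in mature mice. All 2dpr libraries were higher, and the log2 fold change was -1.58 ± 0.28 (edgeR adjusted p = 0.000136). mt-Nd4 (chrM:10167-11544) went from 914, 758, 666 and 478 CPM to 207, 242 and 330 CPM, again without overlap (-1.44 ± 0.28, edgeR adjusted p = 0.000484). mt-Nd5 had a log2 fold change of -1.54 ± 0.30 (edgeR adjusted p = 0.000476), and mt-Nd1 and mt-Cytb fell by 0.87 ± 0.24 and 0.84 ± 0.23 on the log2 scale (edgeR adjusted p = 0.0117 and 0.0126). mt-Co1 did not pass, at -0.63 ± 0.26 (edgeR adjusted p = 0.106), nor did any of mt-Atp6, mt-Atp8, mt-Co2, mt-Co3, mt-Nd3, mt-Nd4l and mt-Nd6, of which mt-Co3 and mt-Nd3 had values above 0.

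On the nuclear side the largest rises were those of Cox8b, Cox7a1 and Ndufa4l2. Cox8b was at 24.9, 27.5, 8.99 and 60.2 CPM at 2dpr and at 89.7, 79.6 and 122 CPM at 5dpr, without overlap (1.66 ± 0.35, edgeR adjusted p = 0.000966). Cox7a1 rose by 1.44 ± 0.26 on the log2 scale (edgeR adjusted p = 0.000195) and Ndufa4l2 by 1.35 ± 0.26 (edgeR adjusted p = 0.000387). Ndufv1 rose from 84.2, 89.7, 106 and 92.5 CPM to 127, 138 and 158 CPM (0.60 ± 0.17, edgeR adjusted p = 0.0146). Every 5dpr library lay above every 2dpr library for that gene.

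The count of nuclear rises depended on single libraries. Without mature 2dpr replicate 3, 28 nuclear members rose and 6 mitochondrial members fell, and the medians were 0.48 and -0.87. Without mature 2dpr replicate 2 the counts were 59 and 5 and the medians 0.65 and -0.36. Without mature 5dpr replicate 4, 19 nuclear members rose and 5 mitochondrial members fell, without 5dpr replicate 3, 36 and 4, and without 5dpr replicate 1, 39 and 3. The signs of both medians stayed as they were in each of these fits. An interaction test of whether this step differed between the ages passed for 0 members, where 0% of all genes passed, and at an unadjusted p under 0.05 for 17 nuclear and 5 mitochondrial members and 8.09% of all genes (DESeq2, 0 members).

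In immature mice the same step moved few members. Uqcrh (a hinge subunit of complex III), Atp5md (a small subunit of ATP synthase) and Cox6c2 rose and no member fell, where 4.37% of all genes rose. Uqcrh had a log2 fold change of 0.51 ± 0.14 (edgeR adjusted p = 0.0203) and Atp5md of 0.59 ± 0.17 (edgeR adjusted p = 0.0207). Cox6c2, at 1.89 ± 0.61 (edgeR adjusted p = 0.0467) and named after its values were seen, overlapped between groups, and its value was 0.40 without immature 5dpr replicate 2. Without 2dpr replicate 2 or 5dpr replicate 2 none of the 3 passed, and without 2dpr replicate 3 only Atp5md did. The medians were 0.16 for the nuclear members, 0.02 for the mitochondrial members and 0.01 for all genes.

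At 2dpr the ages were compared directly. mt-Nd2, mt-Nd4 and mt-Nd5 were lower in immature mice and no other member passed, where 0.17% of all genes tested were lower. Of these, mt-Nd4 has mostly shared windows and mt-Nd5 overlaps mt-Nd6, as described above. The median difference was -0.69 for the 7 mitochondrial genes with few or no shared windows and -0.77 for the 6 with mostly shared windows. mt-Nd2 was at 260, 283, 366 and 255 CPM in immature and at 1015, 805, 484 and 482 CPM in mature mice. The highest immature library lay below the lowest mature library, and the log2 difference of immature minus mature was -1.26 ± 0.25 (edgeR adjusted p = 0.00982). mt-Nd4 was at 254, 309, 407 and 268 CPM against 914, 758, 666 and 478 CPM, also without overlap (-1.18 ± 0.25, edgeR adjusted p = 0.0173). mt-Nd5 was at 254, 318, 442 and 281 CPM against 975, 877, 507 and 475 CPM, without overlap (-1.13 ± 0.27, edgeR adjusted p = 0.0407).

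These 3 calls depended on the fit. With only the libraries compared none passed, and DESeq2 called 5 mitochondrial members lower and 2 nuclear members higher. None passed without immature 2dpr replicate 4 or without mature 2dpr replicate 1, only mt-Nd2 passed without immature 2dpr replicate 1, and mt-Nd5 was lost without immature 2dpr replicate 2 or mature 2dpr replicate 2. Without mature 2dpr replicate 3 all 3 passed, with log2 differences of -1.40, -1.21 and -1.26. Without mature 2dpr replicate 4, 3 mitochondrial members were lower and 2 nuclear members higher. Without immature 2dpr replicate 2, 1 nuclear member was also higher. mt-Nd1 had separate groups and a difference of -0.79 ± 0.22 (edgeR adjusted p = 0.0804). Over the 13 mitochondrial genes the median difference was -0.69, over the 94 nuclear members 0.25 and over all genes 0.04, and of the nuclear members 86 had values above 0 and none passed, where 0.457% of all genes were higher. Without mature 2dpr replicate 3 the nuclear median was 0.15 and the mitochondrial one -0.88, and the nuclear members with an unadjusted p under 0.05 went from 13 to 2. The 8 osteoblast markers, genes of bone-forming cells, had a summed level of 4810 to 8353 CPM in immature and of 1642 to 3180 CPM in mature mice. However, 0 of the 8 passed the test, and their part in the difference was not tested. Of these 7 lay above 0 (median 1.45), and Ibsp lay below it (-0.20). Values above 0 were also found in 8 of 8 osteoclast (median 1.01), 7 of 8 chondrocyte (0.58) and 7 of 8 erythroid markers (0.45). Of 10 leukocyte markers 2 lay above 0 (median -0.24), and none of these lists had a call. Of the other marker lists, Cidea (1 of 7 brown adipocyte markers), Mb (1 of 20 muscle markers), and Col1a2 and Col3a1 (2 of 8 fibroblast markers) were higher in immature mice, named after their values were seen. The summed brown adipocyte level was 15.0 to 208 CPM in immature and 13.9 to 18.0 CPM in mature mice. The summed level of the 20 muscle markers overlapped, at 14885 to 21975 CPM in immature and 11095 to 22937 CPM in mature mice.

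**Figure D4:**
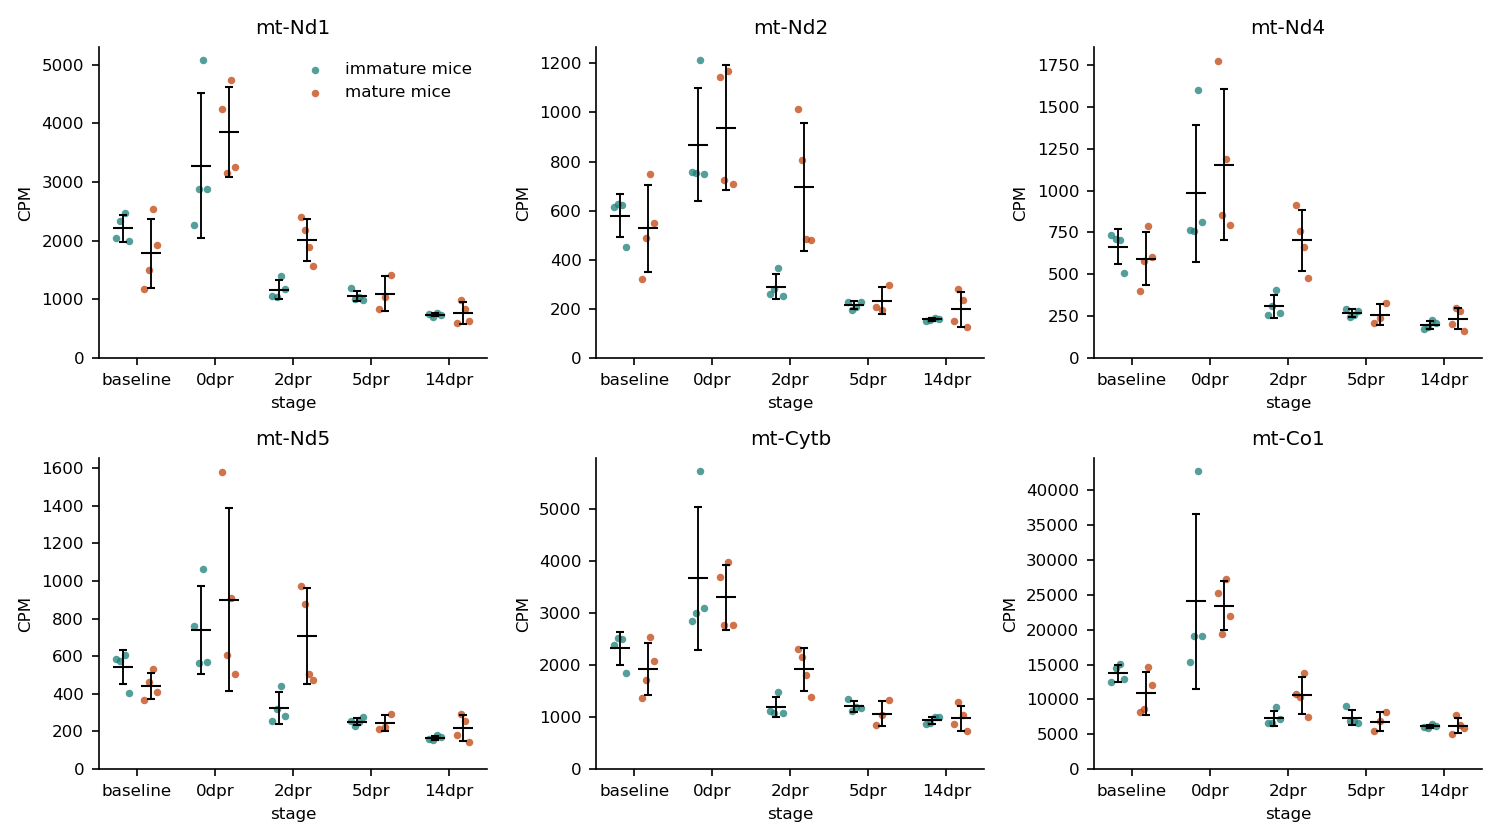
CPM (linear axes from 0) of mt-Nd1, mt-Nd2, mt-Nd4, mt-Nd5, mt-Cytb and mt-Co1, 1 point per library, by stage and age, with bars for the mean and SD. At 2dpr the mature libraries of mt-Nd2, mt-Nd4 and mt-Nd5 lie above all immature ones, and at 5dpr both ages lie between 196 and 330 CPM for these genes.

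Between baseline and 0dpr the members rose in mature mice. There 70 nuclear and 12 mitochondrial members rose and none fell, where 11.9% of all genes rose, with medians of 0.69 and 1.06 against -0.02 for all genes. Sdha, the flavoprotein of complex II, was at 342, 353, 454 and 450 CPM at baseline and at 1017, 612, 868 and 770 CPM at 0dpr in mature mice. All 0dpr libraries were higher, by 1.03 ± 0.14 on the log2 scale (edgeR adjusted p = 2.09e-05). The largest rises were of mt-Atp8 (1.72 ± 0.59, edgeR adjusted p = 0.0314), mt-Nd6 (1.44 ± 0.32, 0.00136) and mt-Atp6 (1.19 ± 0.41, 0.0315), all of low level. mt-Atp8 failed the threshold without baseline replicate 1, 2 or 4 or 0dpr replicate 3, and mt-Atp6 also without 0dpr replicate 1. The count of mitochondrial rises was 5 without 0dpr replicate 1, 6 without 0dpr replicate 3 or baseline replicate 1, and 7 without baseline replicate 2 or 4.

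In immature mice only 6 members rose from baseline to 0dpr and none fell, where 5.98% of all genes rose. They were Sdha (0.58 ± 0.14, edgeR adjusted p = 0.0083), Ndufs1 (0.53 ± 0.17, 0.0345), Uqcrfs1 (0.50 ± 0.16, 0.04), mt-Co1 (0.81 ± 0.24, 0.0286), mt-Cytb (0.66 ± 0.21, 0.0417) and mt-Nd6 (0.95 ± 0.32, 0.0468). None of the 6 passed without immature 0dpr replicate 3, the library in which short members were low, and their values were then 0.45, 0.34, 0.37, 0.41, 0.39 and 0.61 in the same order, whereas 19 members passed without 0dpr replicate 1. Without baseline replicate 2, 3 or 6 only 1 member passed, and without baseline replicate 4 only 2. The medians were 0.22 for the nuclear and 0.56 for the mitochondrial members, against 0.00 for all genes. Without 0dpr replicate 3 they were 0.16 and 0.26, and without baseline replicate 6 the nuclear median was 0.13. The mitochondrial genes were split by sequence sharing. The 7 with few or no shared windows had a median of 0.66, all above 0. The 6 with mostly shared windows had a median of -0.11, and 5 of them lay below 0. The interaction of this step with age passed for 0 members, where 0.0141% of all genes passed, and at an unadjusted p under 0.05 for 36 nuclear and 4 mitochondrial members and 8.07% of all genes (DESeq2, 0 members).

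At 14dpr the members had not returned to baseline at either age. In immature mice 78 nuclear and 13 of 13 mitochondrial members were lower than at baseline, where 15.1% of all genes were lower, and 2 were higher, where 16.4% of all genes were higher. In mature mice 70 nuclear and 10 mitochondrial members were lower and 2 were higher, where 16.4% and 17.1% of all genes were lower and higher. The nuclear medians were -0.87 and -0.60 and the mitochondrial medians -1.61 and -1.09, with -0.04 and -0.03 for all genes. mt-Nd2 was at 616, 629, 625 and 450 CPM at baseline and at 151, 157, 163 and 160 CPM at 14dpr in immature mice, without overlap (-1.88 ± 0.26, edgeR adjusted p = 4.32e-07). In mature mice it went from 322, 489, 749 and 551 CPM to 152, 281, 235 and 126 CPM, also without overlap (-1.41 ± 0.25, edgeR adjusted p = 3.22e-05).

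The largest falls in immature mice were again Cox6a2, Cox7a1 and Cox8b, by 2.58 ± 0.37, 2.31 ± 0.25 and 2.25 ± 0.33 on the log2 scale (edgeR adjusted p = 9.77e-07, 5.77e-09 and 1.72e-06). In mature mice they were Cox6a2 (-2.14 ± 0.36, edgeR adjusted p = 1.46e-05), Cox6b2 (-1.81 ± 0.48, 0.00296), a testis-type complex IV isoform at 6.50 ± 1.49 CPM at baseline and 1.84 ± 0.92 CPM at 14dpr (SD, n = 4), and the assembly factor Ndufaf5 (-1.64 ± 0.24, 1.77e-06). There Cox7a1 and Cox8b fell by 1.47 ± 0.24 on the log2 scale and from 259 ± 58.8 to 91.9 ± 19.1 CPM (SD, n = 4 per group), respectively (edgeR adjusted p = 1.15e-05 and 0.0004). Cox6a1 and Cox8a did not pass at either age, with values between -0.13 and 0.33.

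The 2 members that rose from baseline to 14dpr were Ndufa4l2 and Cox4i2, isoforms known from cells at low oxygen. Ndufa4l2 (chr10:127514967-127517154) was at 6.40, 4.12, 6.70 and 5.55 CPM at baseline and at 16.4, 10.8, 17.0 and 12.2 CPM at 14dpr in immature mice. Every 14dpr library was higher (1.31 ± 0.26, edgeR adjusted p = 0.000119). In mature mice Ndufa4l2 went from 4.40, 3.60, 2.76 and 6.06 CPM to 34.5, 13.4, 22.3 and 21.2 CPM, also without overlap (2.44 ± 0.26, edgeR adjusted p = 4.04e-09). Ndufa4, its partner of higher level, fell by 1.12 ± 0.18 and 0.85 ± 0.18 (edgeR adjusted p = 5.61e-06 and 0.000243).

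Cox4i2 (chr2:152754173-152765037) stayed at a few CPM. It was at 0.457, 1.75, 2.16 and 1.44 CPM at baseline and at 4.26, 3.75, 2.93 and 3.93 CPM at 14dpr in immature mice, without overlap (1.35 ± 0.51, edgeR adjusted p = 0.0427). In mature mice it went from 2.20, 0.671, 0.887 and 1.12 CPM to 3.98, 2.46, 5.01 and 1.66 CPM, with overlap (1.43 ± 0.52, edgeR adjusted p = 0.0322). In immature mice only leaving out baseline replicate 4 or 14dpr replicate 3 kept the call, and in mature mice only baseline replicate 1, 14dpr replicate 2 or 14dpr replicate 4. Cox4i1, which encodes the main isoform of that subunit, was lower at 14dpr in immature mice (-0.51 ± 0.16, edgeR adjusted p = 0.0147) and did not pass in mature mice (-0.32 ± 0.16, edgeR adjusted p = 0.13). The immature call was lost without baseline replicate 4, at -0.44.

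Between 5 and 14dpr almost nothing passed. In immature mice 0 members passed, where 3.18% of all genes passed, and 13 nuclear and 3 mitochondrial members and 14% of all genes had an unadjusted p under 0.05 (DESeq2, 1 member). In mature mice Atp5md fell (-0.65 ± 0.18, edgeR adjusted p = 0.0277) and no other member passed, where 4.18% of all genes passed, with 49 nuclear and 6 mitochondrial members and 18.4% of all genes under an unadjusted p of 0.05 (DESeq2, 6 members). That call was lost without any of 14dpr replicates 1, 3 and 4 or any 5dpr library, and held only without 14dpr replicate 2. The nuclear medians were -0.17 in immature and -0.41 in mature mice and the mitochondrial ones -0.58 and -0.52, with -0.02 for all genes. Below 0 lay 77 and 92 of the 94 nuclear members, and 13 of 13 mitochondrial members at both ages. Without mature 5dpr replicate 4 the mature mitochondrial median was -0.10.

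The remaining age comparisons gave almost no calls. At baseline 1 nuclear member passed, where 0.585% of all genes passed, and that call held in only 1 of the leave-one-out fits. In all, 32 nuclear members, 1 mitochondrial member and 11.7% of all genes had an unadjusted p under 0.05 at baseline. The median difference was 0.34 for the nuclear and 0.33 for the mitochondrial members. Without mature baseline replicate 2 the nuclear median was 0.22, without mature baseline replicates 1 and 3 in turn the mitochondrial median was 0.22 and 0.51, and with the muscle covariate described below both were 0.10. At 0dpr 0 members passed, where 0.726% of all genes passed, and 1 nuclear member and 10.7% of all genes had an unadjusted p under 0.05 (DESeq2, 0 members). At 5dpr 0 members passed, where 0% of all genes passed, and no member but 5.1% of all genes had an unadjusted p under 0.05 (DESeq2, 0 members). At 14dpr 0 members passed, where 0.00943% of all genes passed, with 1 nuclear member and 4.57% of all genes under an unadjusted p of 0.05 (DESeq2, 0 members).

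The interaction with age was also tested for the other stage changes. For 2 against 0dpr 0 members passed, where 0.0613% of all genes passed, and 20 nuclear and 4 mitochondrial members and 11.2% of all genes had an unadjusted p under 0.05. For 14 against 5dpr 0 passed, where 0% of all genes passed, and 1 nuclear member and 4.25% of all genes had an unadjusted p under 0.05. For 14dpr against baseline 0 passed, where 0.0472% of all genes passed, and 4 nuclear members and 7.98% of all genes had an unadjusted p under 0.05. DESeq2 called 0 members in each of the 3.

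Other genes of the pathway are given by lists drawn up by function. From 0 to 2dpr, where 22.2% of all genes fell and 21.8% rose in immature mice (in mature mice 24.9% and 22.7%), 20 of 20 genes of the citric acid cycle fell at both ages, with medians of -1.35 and -1.73. Of 13 genes for electron carriers, 10 fell and 1 rose at both ages. Of 81 genes of the mitochondrial ribosome, 18 fell and 3 rose in immature mice and 34 fell and 2 rose in mature mice, with medians of -0.19 and -0.31. The immature share of falls there was that of all genes. Of 38 other assembly factors of the complexes, 16 fell and 2 rose in immature and 18 fell and 1 rose in mature mice. Of 27 genes for the expression of mitochondrial DNA, 10 and 11 fell and 1 rose at each age. Of 13 regulators of biogenesis, 6 fell and 1 rose in immature and 7 fell and 2 rose in mature mice, and of 12 mitochondrial carriers 6 fell and 3 rose and 7 fell and 2 rose.

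Cs (citrate synthase) fell by 1.20 ± 0.15 and 1.61 ± 0.15 on the log2 scale in immature and mature mice (edgeR adjusted p = 3.9e-08 and 5.76e-11), and Cycs (cytochrome c) by 1.23 ± 0.20 and 1.19 ± 0.19 (3.05e-06 and 3.99e-06). Ppargc1a, a coactivator of mitochondrial biogenesis, fell by 2.86 ± 0.34 and 3.28 ± 0.35 (edgeR adjusted p = 1.61e-08 and 8.09e-10), and Esrrg, a nuclear receptor that works with it, by 2.57 ± 0.36 and 2.30 ± 0.35 (4.03e-07 and 1.25e-06). Tfam, which packs and transcribes mitochondrial DNA, fell by 0.63 ± 0.16 and 0.41 ± 0.16 (edgeR adjusted p = 0.00193 and 0.0355). The ADP/ATP carriers moved apart: Slc25a4, the form of muscle and heart, fell by 2.27 ± 0.23 and 2.77 ± 0.24 (edgeR adjusted p = 7.47e-10 and 8.64e-12), and Slc25a5 rose by 1.08 ± 0.13 and 1.03 ± 0.13 (3.17e-08 and 5.95e-08). Ucp2, a carrier found in leukocytes among other cells, rose by 1.09 ± 0.25 and 0.79 ± 0.25 (edgeR adjusted p = 0.000453 and 0.00818), whereas Ucp3 of muscle fell by 2.70 ± 0.57 and 2.32 ± 0.55 (0.00019 and 0.000673).

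Markers of skeletal muscle moved with these results. From 0 to 2dpr 20 of 20 muscle markers fell at both ages, with medians of -2.74 and -3.24, and 7 of 10 leukocyte markers rose. At this step 22.2% and 24.9% of all genes fell and 21.8% and 22.7% rose. Muscle was not alone: in mature mice 8 of 8 erythroid, 8 of 8 adipocyte, 6 of 8 osteoblast and 4 of 8 osteoclast markers fell. Their medians were -3.12, -1.45, -2.19 and -0.99. Of 8 fibroblast markers 5 rose and 1 fell, and of 8 chondrocyte markers 1 rose and 0 fell. The summed CPM of the muscle markers was between 36308 and 174682 in the 16 libraries of baseline and 0dpr and between 11095 and 38487 in the 23 later ones. From baseline to 0dpr 2 of 20 muscle markers rose in immature and 19 of 20 in mature mice, where 5.98% and 11.9% of all genes rose. From 2 to 5dpr 3 and 12 of 20 rose, where 4.37% and 8.16% of all genes rose. From 0 to 2dpr in mature mice 7 of 7 brown adipocyte markers fell as well, where mature 0dpr replicate 1 had a summed brown marker level of 1197 CPM against at most 384 CPM in any other library of 0dpr or baseline.

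**Figure D5:**
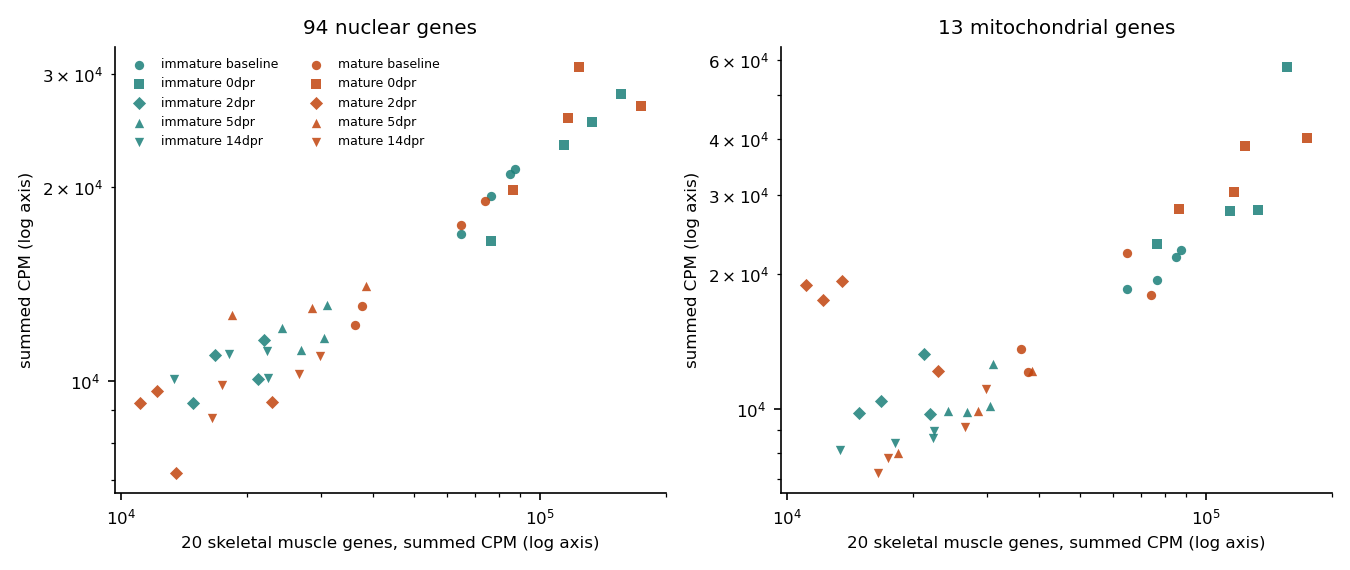
Summed CPM of the 20 muscle markers (x axis, log scale) and of the nuclear or mitochondrial members (y axes, log scale), 1 point per library. Libraries of baseline and 0dpr lie at the upper right and those of 2 to 14dpr at the lower left, and 3 of the 4 mature 2dpr libraries lie above the other late libraries on the mitochondrial axis.

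With the mean log2 level of the muscle markers as a covariate, most calls were lost. From 0 to 2dpr 1 nuclear member and no mitochondrial member still passed in either age. The nuclear medians became -0.11 in immature and -0.27 in mature mice. The mitochondrial medians became -0.31 in immature and 0.57 in mature mice, where the sign turned. From 2 to 5dpr in mature mice 1 nuclear member rose and 1 fell, while 7 mitochondrial members fell, with medians of 0.21 and -1.25. At 2dpr the age comparison then gave 6 mitochondrial members lower in immature mice and no nuclear call, with medians of -0.98 and 0.05. The shares of all genes called with the covariate are not given here, so these counts have no background beside them. The muscle level differs between stages almost without overlap, so the stage and the muscle share cannot be told apart in this fit.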

How the data were processed

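Bulk RNAseq of 39 libraries in 10 groups was analysed. Reads were mapped to GRCm38 and counted with STAR 2.5.2a by the authors, who deposited raw counts for 48733 genes and filtered counts for 21204 genes (the filter rule is not given in the sources used here). The deposited normalized signal is CPM after TMM scaling by the authors, and recomputed values differed by a relative 4.991e-15 at most. The members and gene lists were chosen with earlier results of these data known.

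Counts of all 21204 genes were fitted with edgeR 4.0.16 (R 4.3.3, limma 3.58.1), 1 coefficient per group, TMM factors and the quasi-likelihood test. P-values were adjusted by Benjamini-Hochberg over all genes, with a threshold of 0.05. Fold changes are on the log2 scale with edgeR's default prior count, and their SE is the fold change over the root of F. The log2 levels of the muscle markers used a prior count of 2, and isoform ratios used a pseudocount of 0.5 CPM. Named genes were the 13 mitochondrial genes, 10 genes of isoform pairs, 10 central subunits, the 3 largest non-overlapping changes in each direction, and members called between ages, plus 12 listed regulators and carriers, of which some are named. Depth covers counting error only.

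Alternatives were DESeq2 1.42.0, other scalings and filters, the compared libraries alone, a replicate block, a muscle covariate, a threshold of 0.01 and leaving out each library. On data simulated for immature 2 against 0dpr over 21204 genes, 62% of 2-fold and 86% of 4-fold changes were recovered, with 9 false among 157 calls. The simulation changed only 200 genes, as many up as down. At the real step 22.2% of all genes fell and 21.8% rose, so these rates may not carry over to it. Replicate numbers were shared between groups. Same-numbered libraries deviated together in every pair only in the age comparison at 0dpr (lowest r = 0.178 over 4 pairs), where the replicate block also gave 0 members. The values of 1 member are not reported here.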

Additional observations from a re-analysis of the deposited data

Results flagged for a closer look

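Of 207 groups tested for a library standing apart from its group (Dixon's 95% limit, which chance passes in about 1 of 20 groups), 19 were marked. No explanation was tested. Many came from the libraries already described. In immature 0dpr replicate 3 the summed mitochondrial level was 57775 CPM (23371 to 27849 CPM in the other libraries), mt-Co1 42769 CPM, mt-Cytb 5738 CPM, mt-Nd4 1598 CPM and mt-Nd2 1212 CPM, each above its group. In mature 2dpr replicate 3 the summed nuclear level was 7183 CPM, below the other 3 libraries at 9228 to 9624 CPM. Immature baseline replicate 6 was low for mt-Nd2 (450.2 CPM), mt-Nd4 (511 CPM) and mt-Nd5 (405 CPM). Immature 5dpr replicate 2 was high for the mitochondrial sum (12635 CPM), mt-Co1 (9049 CPM) and Ndufv1 (158 CPM). Immature 2dpr replicate 3 was high for mt-Cytb (1479 CPM) and Cox4i2 (1.68 CPM).

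Among muscle isoforms, Cox6a2 was at 106 CPM in mature 2dpr replicate 4, against 31.1 to 43.7 CPM in the other 3 libraries. The log2 ratio of Cox6a2 to Cox6a1 was 1.42 in immature 0dpr replicate 1, below its group, and that of Cox8b to Cox8a was -0.50 in immature 14dpr replicate 2. The log2 ratio of Cox4i2 to Cox4i1 was -9.17 in immature baseline replicate 2 and -7.18 in mature baseline replicate 1, where Cox4i2 rests on few counts.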

How the results depend on the processing

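The number of members called is given for each comparison in which a setting moved it over 1.5-fold, and the cause was not tested. Shares of all genes called in these settings are not given here. Baseline to 0dpr in immature mice (6 members) gave 12 with RLE size factors, 12 with TMM factors without mitochondrial genes, 13 with genes kept by filterByExpr, 1 with the replicate block, 1 with the muscle covariate, 0 with only the libraries compared, 21 with DESeq2, 1 at a threshold of 0.01, and 0 to 19 leaving out 1 library. From 2 to 5dpr immature mice (3 members) gave 0 with the covariate, 9 with only the libraries compared, 0 at 0.01 and 0 to 3 leaving out 1 library. Mature mice (63 members) gave 9, 12, 19 and 24 to 64 in that order. From 5 to 14dpr immature mice (0 members) gave 13 with only the libraries compared, 1 with DESeq2 and 0 to 1 leaving out 1 library. Mature mice (1 member) gave 0 with all genes of at least 1 count, 3 with the covariate, 48 with only the libraries compared, 6 with DESeq2, 0 at 0.01 and 0 to 3 leaving out 1 library. Between ages at baseline (1 member) the count was 0 with RLE, with TMM without mitochondrial genes, with all genes, with the replicate block, with the covariate and at 0.01, 2 with only the libraries compared, and 0 to 1 leaving out 1 library. Between ages at 2dpr (3 members) it was 6 with the covariate, 0 with only the libraries compared, 7 with DESeq2, 1 at 0.01 and 0 to 5 leaving out 1 library.

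With the covariate 1 member passed from 0 to 2dpr in each age, from baseline to 0dpr in mature mice and from baseline to 14dpr in immature mice, and 6 from baseline to 14dpr in mature mice. It also turned the sign of Cox6a2 from 0 to 2dpr (0.36 in immature, 0.33 in mature mice), of mt-Co1 (0.57), mt-Nd1 (0.87), mt-Nd4 (0.84) and mt-Cytb (0.79) in mature mice at the same step, and of Cox4i1 from baseline to 14dpr in immature mice (0.0355). Over 154 same-numbered pairs the mean r of the deviations was 0.0125, and the replicate block moved no other count of members over 1.5-fold. The difference between the nuclear and mitochondrial medians moved by less than 1 SD between replicates (0.45) in every setting run. The interactions were not run on the compared libraries alone.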
